A study of Mus musculus with 96 samples.

Results

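The genes described here make, sense, move or remove cholesterol. They are 29 of the 48795 genes of the deposited count table, chosen by name: 18 enzymes of the synthesis pathway, the 5 genes Srebf2, Srebf1, Scap, Insig1 and Insig2 of the sterol-sensing circuit, and 6 genes of sterol transport, turnover and signalling (Stard4, Cyp46a1, Abca1, Abcg1, Apoe and Nr1h2). All 29 were found and all 29 passed the filter on low counts in both tissues. Each was measured as RNA in striatum and cortex of 48 mice aged 6 months, on a C57BL/6 background.

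The animals belonged to 6 genotypes of 8 animals each, 4 females and 4 males, and each animal gave 1 library of each tissue. WT animals carried neither allele. Q140 animals were heterozygous for Q140, a knock-in allele of Htt with an expanded CAG repeat that models Huntington's disease. Pms1 het (Pms1+/-) and Pms1 null (Pms1-/-) animals lacked 1 or both copies of Pms1, a mismatch-repair gene, without the knock-in, and Q140 Pms1 het and Q140 Pms1 null animals combined the knock-in with each of these. A knock-in allele is transcribed from the Htt locus itself, and how the Pms1 allele was made is not stated in the labels. Libraries held between 27993751 and 56364535 counts. As a check of the genotype, Pms1 in striatum was at 5.43 ± 0.34 CPM (counts scaled by library size; mean ± SD, n = 8) in WT and 4.03 ± 0.44 in Pms1 null (log2 fold change -0.43, adjusted p = 0.000698, edgeR's quasi-likelihood test), and in cortex at 3.78 ± 0.40 and 3.53 ± 0.39 (-0.10, adjusted p = 0.467); a count over the whole gene need not report the state of an undescribed allele.

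Cholesterol does not cross the blood-brain barrier in useful amounts, so the brain makes its own. Synthesis runs from acetyl-CoA through mevalonate and the isoprenoids to squalene, then to lanosterol and by a series of demethylations, reductions and isomerisations to cholesterol. When sterols are scarce in the endoplasmic reticulum, Scap escorts the precursor of SREBP2, the product of Srebf2, to the Golgi, where it is cut to release a transcription factor for the genes of the pathway. Insig1 and Insig2 hold the complex back when sterols are plentiful. In the adult brain much of the synthesis is ascribed to glia, Apoe carries the lipid between cells, and neurons dispose of excess through Cyp46a1, cholesterol 24-hydroxylase, whose product leaves the brain and activates the liver X receptors, of which Nr1h2 encodes LXR-beta.

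The sequences just upstream of 4 members that varied together between animals, as described further on, are shown because genes of this pathway are known to share promoter elements for SREBP and NF-Y. Each is the 250 bases before the RefSeq transcription start on GRCm38.p6, written 5′ to 3′ on the gene's strand: Hmgcs1 at chr13:119690101-119690350 (plus strand), Idi1 at chr13:8885356-8885605 (plus), Cyp51 at chr5:4104698-4104947 (minus) and Insig1 at chr5:28071162-28071411 (plus). Capitals mark matches to TCACNCCAC, a form of the sterol regulatory element, and to CCAAT, the NF-Y box, on either strand (ATTGG is CCAAT read on the other strand).
Hmgcs1: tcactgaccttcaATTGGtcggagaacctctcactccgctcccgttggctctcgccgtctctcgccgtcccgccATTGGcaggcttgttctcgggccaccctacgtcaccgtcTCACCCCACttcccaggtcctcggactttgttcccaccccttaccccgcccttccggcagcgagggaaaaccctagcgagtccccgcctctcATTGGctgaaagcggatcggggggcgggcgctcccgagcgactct
Idi1: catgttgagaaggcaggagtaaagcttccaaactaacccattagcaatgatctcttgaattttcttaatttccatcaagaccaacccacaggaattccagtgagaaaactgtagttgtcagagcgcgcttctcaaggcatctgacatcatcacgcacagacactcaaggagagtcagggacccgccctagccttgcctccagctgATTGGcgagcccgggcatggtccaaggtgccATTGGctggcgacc
Cyp51: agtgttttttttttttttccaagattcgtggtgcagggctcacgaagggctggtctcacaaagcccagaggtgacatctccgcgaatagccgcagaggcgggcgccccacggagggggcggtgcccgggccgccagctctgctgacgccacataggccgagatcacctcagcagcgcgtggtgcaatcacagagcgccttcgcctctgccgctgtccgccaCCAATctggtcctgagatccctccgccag
Insig1: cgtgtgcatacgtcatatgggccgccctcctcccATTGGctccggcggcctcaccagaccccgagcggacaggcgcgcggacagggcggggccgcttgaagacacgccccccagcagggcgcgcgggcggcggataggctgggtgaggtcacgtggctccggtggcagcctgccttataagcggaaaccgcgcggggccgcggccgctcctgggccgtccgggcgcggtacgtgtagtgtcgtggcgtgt
In windows from 250 bases before to 50 after the start, RefSeq tables matched 24 of the 29 members with 34 promoters; Fdft1, Fdps, Abcg1, Sqle and Stard4 had none. TCACNCCAC was found in 1 of these 34 (2.94%), that of Hmgcs1 as TCACCCCAC at 137 bases before the start, against 1.24% of all 32851 promoters. CCAAT was found in 20 of 34 (58.8%) against 37.4% of all promoters, and GGGCGG, the core of the Sp1 box, in 25 of 34 (73.5%) against 35.7%. Each was searched separately on both strands, so matches of different motifs may share bases, and these are matches of letters, not measured binding.

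In WT animals most synthesis enzymes were lower in striatum than in cortex. Between tissues 27 of the 29 members differed (adjusted p below 0.05, edgeR, over 19723 genes), against 74.5% of all genes tested. The members higher in striatum were 6 (37.8% of all genes were), and those lower were 21 (36.7% of all genes). Among the 18 enzymes 17 were lower in striatum and 0 were higher, and the median log2 difference over the members was -0.52, beside 0.02 over all genes. In 23 members all 8 animals of 1 tissue lay above all 8 of the other (47.7% of all genes), 17 with cortex above and 6 with striatum above.

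Hmgcs1, which makes HMG-CoA, was at 107 to 153 CPM in WT striatum and 239 to 303 in WT cortex (log2 difference -1.02, SE 0.07). Sqle, the squalene epoxidase, was at 22.0 to 31.8 and 50.5 to 58.4 CPM (-1.06, SE 0.07). Insig1 was at 39.9 to 53.5 and 74.2 to 106 CPM (-0.91, SE 0.08). None of these ranges overlapped between tissues. Of the 17 enzymes that passed, those that lay closest between tissues were Ebp, the sterol isomerase (-0.11), Msmo1, which removes methyl groups at C4 (-0.18), and Lss, the lanosterol synthase (-0.20), whose ranges did overlap. Acat2, the thiolase at the head of the pathway, differed by 0.08 (adjusted p = 0.213) and Insig2 by 0.03 (adjusted p = 0.486).

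The genes of sterol efflux and disposal ran the other way. Abcg1, a sterol exporter, was at 93.0 to 100.6 CPM in striatum and 59.7 to 68.4 in cortex (0.59, SE 0.04), and Abca1, which lipidates Apoe, differed by 0.51. Cyp46a1 was at 271 to 298 and 199 to 231 CPM (0.40, SE 0.03), Srebf1, whose product acts mainly on fatty acid genes, by the same 0.40, Apoe by 0.21 and Scap by 0.11. Srebf2 differed by only -0.11 and Nr1h2 by -0.30. Per length, on the authors' FPKM scale (fragments scaled by gene length and library size), Apoe was the most abundant member in both tissues (553 in striatum, 481 in cortex), followed by Cyp46a1 (132 and 101), and Idi1, the isoprenoid isomerase, was the least (1.41 and 2.47). In the same comparison markers of myelinating oligodendrocytes were higher in striatum in 12 of 12 genes (median 1.53) and astrocyte markers lower in 11 of 12 (median -0.35). Their part in the tissue differences was not tested, and in bulk tissue fewer cells of a type and less RNA per cell cannot be told apart.

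**Figure D1:**
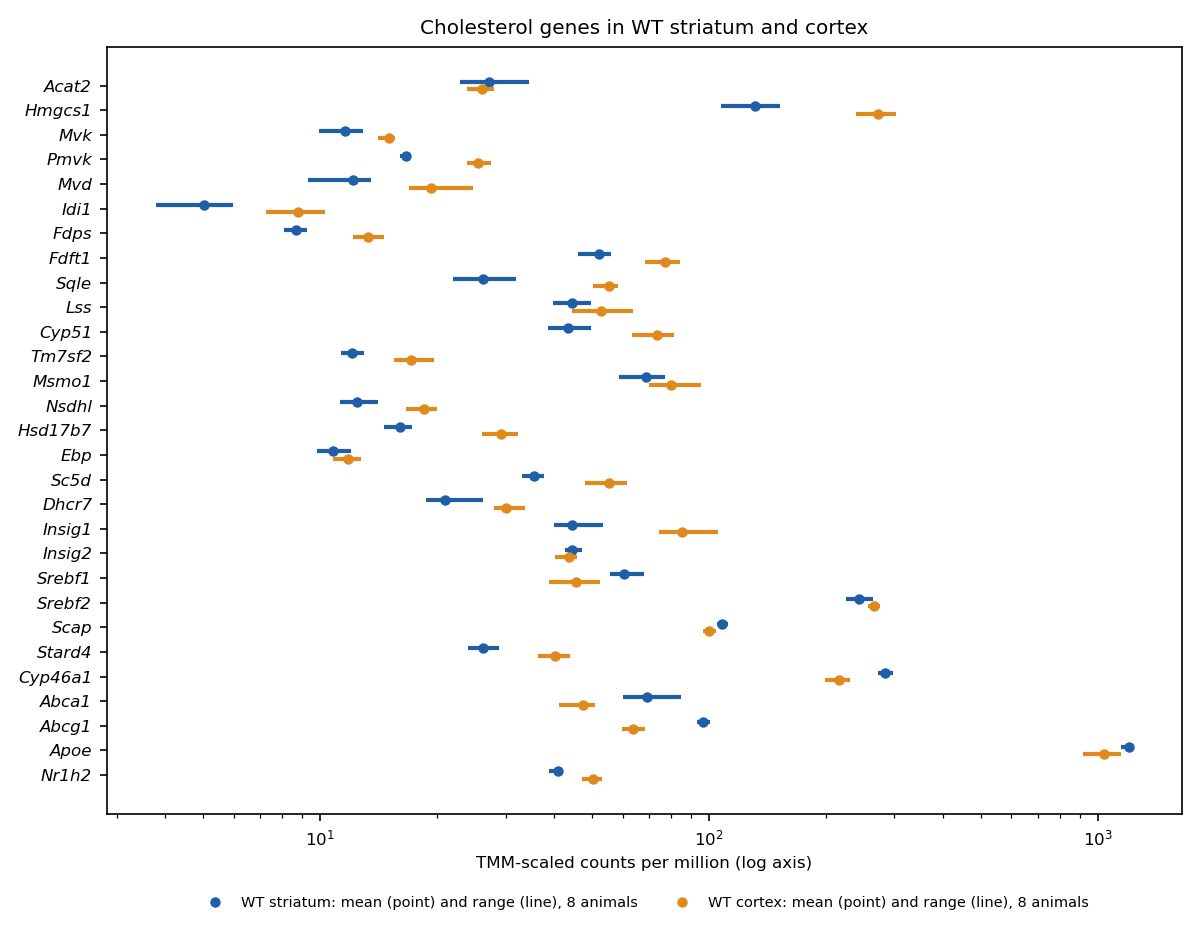
Level of the 29 members in WT striatum and WT cortex in CPM on a log axis. The point is the mean and the line the range of the 8 animals per tissue. Of the 18 enzymes, 17 sit to the right in cortex and Acat2 does not, with Hmgcs1 and Sqle about 1 log2 unit apart, while Abca1, Abcg1, Cyp46a1, Srebf1, Apoe and Scap sit to the right in striatum.

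In striatum 9 members were lower and 3 higher with the knock-in (Q140 against WT, adjusted p below 0.05, edgeR, over 18890 genes). The 12 of 29 stand beside 31.3% of all genes tested in either direction. The 9 lower members stand beside 15.4% of all genes lower and the 3 higher members beside 15.9% higher, and the median of the members was -0.02 beside 0.01 over all genes. The lower members were Acat2, Hmgcs1, Msmo1, Insig1, Srebf2, Scap, Stard4, Cyp46a1 and Apoe, and the higher ones Pmvk, Tm7sf2 and Srebf1. In 4 members (Acat2, Pmvk, Srebf2 and Cyp46a1) the groups did not overlap, beside 8.13% of all genes.

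Among the enzymes, Acat2 had the largest difference of any member. Its lowest, median and highest values were 23.0, 26.2 and 34.9 CPM in WT and 18.4, 20.0 and 22.5 in Q140 (log2 fold change -0.45, SE 0.07, adjusted p = 1.65e-06). Every Q140 animal lay below every WT animal. Acat2 has a near-identical relative, Acat3 (-0.06, adjusted p = 0.707), so counts may be split between them. Hmgcs1 was at 108, 130.4 and 154 CPM in WT and 99.7, 115 and 127 in Q140 (-0.21, SE 0.06, adjusted p = 0.0107), with overlapping groups. Msmo1 was at 59.3, 70.2 and 78.0 CPM and 48.9, 57.5 and 67.1 (-0.28, SE 0.07, adjusted p = 0.000765), also overlapping.

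The enzymes that rose acted at other steps. Pmvk, the phosphomevalonate kinase, was at 16.2, 16.9 and 17.2 CPM in WT and 17.9, 18.5 and 19.0 in Q140 (0.13, SE 0.03, adjusted p = 0.000613), without overlap. Tm7sf2, a sterol C14 reductase, was at 11.4, 12.3 and 13.1 CPM and 12.9, 14.7 and 15.9 (0.27, SE 0.05, adjusted p = 8.21e-06), with the lowest Q140 animal just inside the WT range. Tm7sf2 overlaps Vps51 on the same strand by 532 bases. The other 13 enzymes did not pass; among them Cyp51, the lanosterol demethylase, was at -0.14 (adjusted p = 0.0531), Mvd, which makes isopentenyl diphosphate, at -0.17 (adjusted p = 0.0746) and Dhcr7, which acts at the last steps, at 0.13 (adjusted p = 0.0791), while Sqle was at -0.02 and Lss at 0.0049. The summed level of the 18 enzymes was 559 ± 41 CPM in WT and 525 ± 27 in Q140 (SD, n = 8), with overlapping ranges.

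In the sterol-sensing circuit, Srebf2 fell in every Q140 animal relative to every WT animal. It was at 227, 244 and 267 CPM in WT and 196, 203 and 218 in Q140 (-0.25, SE 0.03, adjusted p = 6.13e-09). Srebf2 (ENSMUSG00000022463) lies at chr15:82147181-82205379 on GRCm38 and hosts Mir33 in an intron. Its partner Scap was at 105, 108 and 112 CPM and 96.2, 100.6 and 106 (-0.11, SE 0.02, adjusted p = 1.17e-05). Insig1, itself a target of SREBP2, was at 40.2, 43.9 and 54.1 CPM and 32.4, 34.4 and 43.2 (-0.34, SE 0.06, adjusted p = 5.94e-05). Insig1 (ENSMUSG00000045294) lies at chr5:28071363-28078662, 6.68 Mb from Htt on the same chromosome, and whether sequence linked to the knock-in allele plays a part was not tested. Srebf1 moved up, from 56.0, 60.5 and 68.5 CPM to 61.6, 67.5 and 71.1 (0.15, SE 0.05, adjusted p = 0.0161), while Insig2 was at 0.01.

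Of the transport and turnover genes, Cyp46a1 showed the clearest separation. It was at 274, 285 and 299 CPM in WT and 227, 243 and 257 in Q140 (-0.24, SE 0.03, adjusted p = 8.9e-08). The gene (ENSMUSG00000021259, chr12:108334381-108362234) is used chiefly by neurons. Apoe, made mainly by astrocytes, was at 1159, 1216 and 1238 CPM and 1064, 1088 and 1178 (-0.14, SE 0.04, adjusted p = 0.0101). Stard4, a carrier of sterol between membranes, was at 24.1, 25.9 and 29.1 CPM and 21.9, 23.6 and 26.6 (-0.15, SE 0.05, adjusted p = 0.0213). Its call was lost without WT animal 27-2 (adjusted p = 0.0585), without WT animal 27-5 (0.0762) or without Q140 animal 7-3 (0.0544). Abca1 (0.05), Abcg1 (-0.06, adjusted p = 0.0925) and Nr1h2 (0.02) did not pass.

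Markers of several cell types moved in the same comparison. All 12 striatal projection neuron markers were lower (median -0.57), and their summed level was 16341 to 18449 CPM in WT and 10754 to 12224 in Q140. Astrocyte markers were lower in 3 of 12 genes (4564 to 4937 CPM against 4179 to 4531), microglia markers in 9 of 12 (529 to 567 against 458 to 531) and endothelial markers in 7 of 10 (271 to 301 against 234 to 270). Myelinating oligodendrocyte markers were lower in 1 of 12, with overlapping sums (5820 to 7282 against 5077 to 7376), and oligodendrocyte precursor markers in 0 of 8. Cortical glutamatergic markers were higher in 2 of 8 and choroid plexus markers in 1 of 7 tested. The part of these markers in the members' differences was not tested. On the authors' FPKM scale, analysed as log2(FPKM + 0.1) with limma, 13 members passed, 8 higher and 5 lower, beside 41.3% of all genes. There 79.9% of the 7809 genes called were higher, against 50.8% on the counts. On that scale Hmgcs1 (-0.12, adjusted p = 0.131), Scap (-0.04, adjusted p = 0.0902), Stard4 (-0.07, adjusted p = 0.301) and Apoe (-0.07, adjusted p = 0.208) did not pass. No member that passed on the counts changed direction. Among animals with a first code number under 16, 11 members passed, beside 26.1% of all genes. Hmgcs1 (-0.14, adjusted p = 0.108) and Stard4 (-0.12, adjusted p = 0.0927) were not among them.

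**Figure D2:**
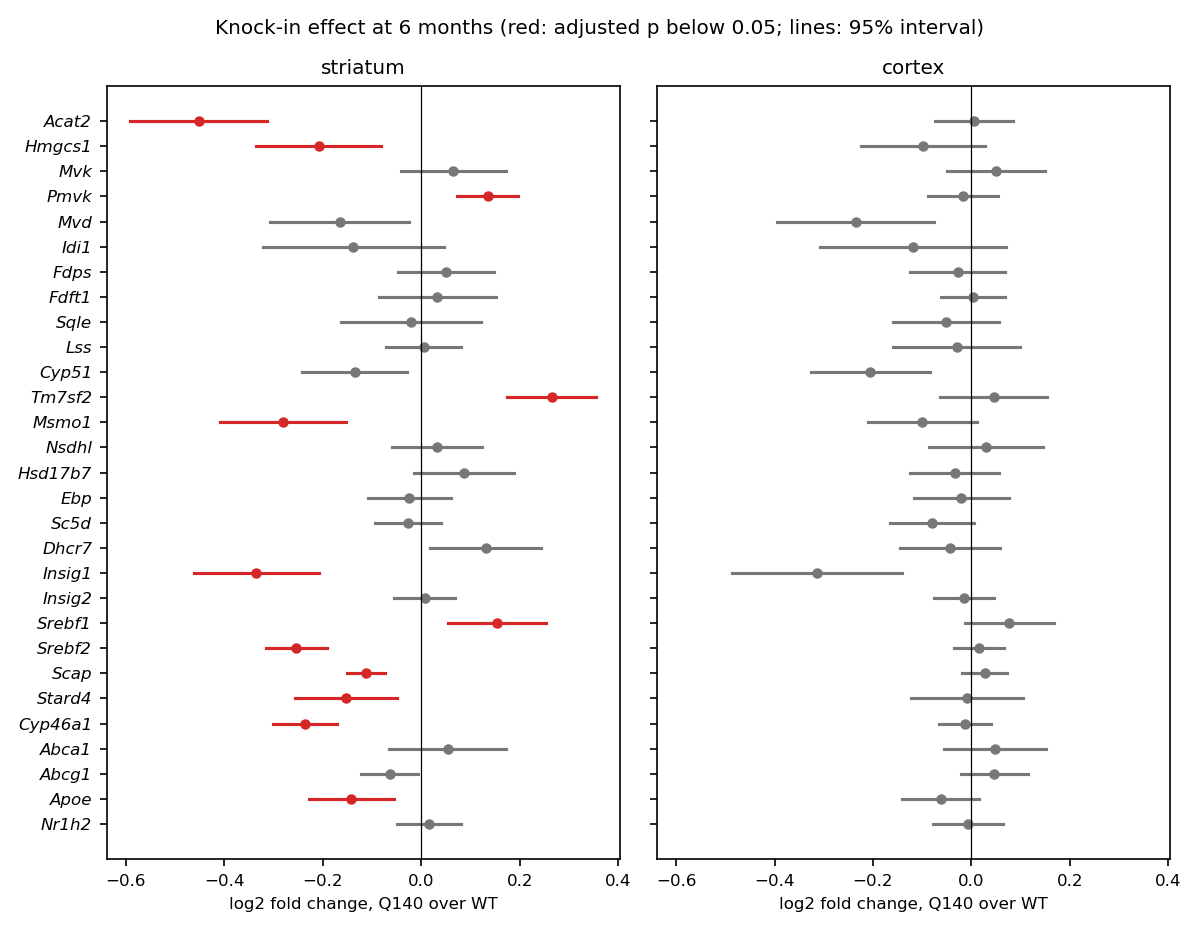
Knock-in effect on the 29 members as edgeR log2 fold changes of Q140 over WT with 95% intervals, in striatum and in cortex. Members at an adjusted p below 0.05 are red. In striatum Acat2, Srebf2 and Cyp46a1 lie below 0 (-0.45, -0.25 and -0.24), while in cortex no member passed.

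The knock-in effect was then read on the other Pms1 backgrounds. With 1 Pms1 copy (Q140 Pms1 het against Pms1 het) 8 members passed, 4 in each direction, beside 24.9% of all genes. Acat2 (-0.28), Srebf2 (-0.16), Scap (-0.08) and Cyp46a1 (-0.17) were lower, and Mvk, the mevalonate kinase (0.24), Pmvk (0.15), Tm7sf2 (0.15) and Hsd17b7, a ketosteroid reductase of the late steps (0.15), were higher. Mvk was at 10.2, 11.1 and 11.7 CPM in Pms1 het and 12.2, 12.9 and 14.1 in Q140 Pms1 het, without overlap. Hmgcs1, lower with 2 copies, was at -0.01 here.

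Without Pms1 (Q140 Pms1 null against Pms1 null) 3 members passed, beside 11.1% of all genes. They were Tm7sf2 (0.16, adjusted p = 0.0212), Hsd17b7 (0.17, adjusted p = 0.0296) and Apoe (-0.14, adjusted p = 0.0338). Tm7sf2 was at 11.8, 12.8 and 13.8 CPM in Pms1 null and 13.1, 14.3 and 15.7 in Q140 Pms1 null, so it passed on all 3 backgrounds. Srebf2 was at -0.02 and Cyp46a1 at -0.09 (adjusted p = 0.0746). Averaged over the 3 backgrounds, 24 animals with the knock-in against 24 without, 13 members passed, 6 higher and 7 lower, beside 42.5% of all genes. The higher ones were Mvk (0.13), Pmvk (0.12), Tm7sf2 (0.19), Hsd17b7 (0.13), Dhcr7 (0.11) and Srebf1 (0.10). The lower ones were Acat2 (-0.29), Msmo1 (-0.15), Insig1 (-0.20), Srebf2 (-0.14), Scap (-0.08), Cyp46a1 (-0.16) and Apoe (-0.11). On log2 FPKM 20 members passed, 13 higher and 7 lower, where 77.5% of the genes called were higher against 53.0% on the counts. The 42.5% belongs to the counts. The share of all genes called on log2 FPKM is not given here, so the 20 are not read as a result about the members.

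Whether loss of Pms1 altered the knock-in effect was tested as the effect without Pms1 minus that with 2 copies. Only Srebf2 passed among the members, beside 5.05% of all genes. Its median was 244 CPM in WT and 203 in Q140, against 221 in Pms1 null and 219 in Q140 Pms1 null, and the 2 effects differed by 0.23 (SE 0.04, adjusted p = 0.000774). Q140 and WT did not overlap, while the groups without Pms1 overlapped and both lay between WT and Q140 in their medians. Cyp46a1 (0.15, adjusted p = 0.0501), Acat2 (0.31, adjusted p = 0.0627), Hmgcs1 (0.27, adjusted p = 0.0717) and Scap (0.08, adjusted p = 0.0948) did not pass. The number passing was 2 with RLE size factors, 4 with a term for late animal codes and 5 with DESeq2. The 5.05% belongs to the main fit, and the shares of all genes in these alternatives are not given here.

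Set directly against Q140, Q140 Pms1 null animals differed in 3 members, beside 7.10% of all genes. Cyp46a1 was at 227, 243 and 257 CPM in Q140 and 255, 267 and 292 in Q140 Pms1 null (0.15, SE 0.03, adjusted p = 0.00159), and Scap at 96.2, 100.6 and 106 and 104, 109 and 110.1 (0.10, SE 0.02, adjusted p = 0.000436). Both lay higher without Pms1, with small overlaps between the groups. Insig2 was lower (42.9, 45.0 and 48.0 CPM against 38.8, 42.1 and 44.0, -0.11, adjusted p = 0.0257). Its call was lost without Q140 animal 18-2 or 18-4 or Q140 Pms1 null animal 21-4 or 44-1 (adjusted p = 0.0622, 0.0810, 0.0776 and 0.0691). Insig2 lies 68.0 Mb from Pms1 on chromosome 1. In the same comparison 12 of 12 striatal projection neuron markers were higher (median 0.31; sum 12603 to 14950 CPM in Q140 Pms1 null), and their part was not tested. With 1 Pms1 copy (Q140 Pms1 het against Q140) 0 members passed by edgeR or by DESeq2, beside 0% of all genes by edgeR, and 0 were at an unadjusted p below 0.05, beside 5.43% of all genes at that threshold.

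Against WT, Q140 Pms1 null animals differed in 8 members, beside 20.0% of all genes. Tm7sf2 (0.22) and Pmvk (0.11) were higher, and Acat2 (-0.27), Insig1 (-0.30), Srebf2 (-0.16), Cyp51 (-0.15), Apoe (-0.14) and Insig2 (-0.10) lower. Of these, Cyp51 and Insig2 did not pass in Q140 against WT. The comparisons of Q140 Pms1 null, of Q140 and of Pms1 null with WT share the 8 WT animals.

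**Figure D3:**
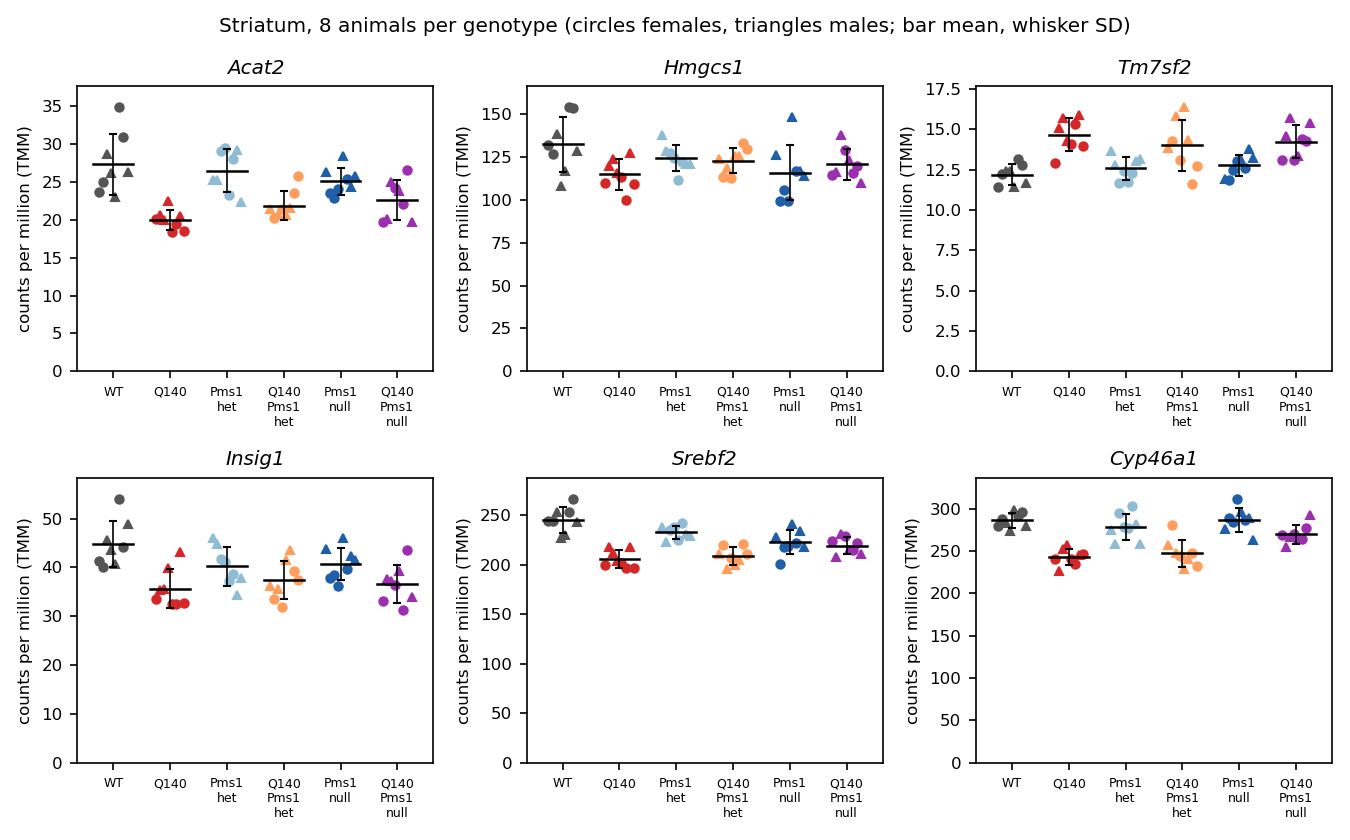
Striatal level of Acat2, Hmgcs1, Tm7sf2, Insig1, Srebf2 and Cyp46a1 in each of 48 animals in CPM, by genotype. The axis starts at 0, the bar is the mean and the whisker the SD. The medians of Srebf2, which are not drawn, were 244 in WT, 203 in Q140, 221 in Pms1 null and 219 in Q140 Pms1 null.

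Loss of Pms1 without the knock-in was associated with few differences. In striatum 3 members passed (Pms1 null against WT), beside 7.91% of all genes. Srebf2 was at 227, 244 and 267 CPM in WT and 201, 221 and 241 in Pms1 null (-0.14, adjusted p = 0.0046). Insig2 was at 43.0, 44.7 and 47.3 CPM and 37.5, 41.9 and 43.8 (-0.11, adjusted p = 0.0290). Fdft1, the squalene synthase, was at 46.4, 53.7 and 56.4 CPM and 51.4, 59.4 and 73.1 (0.19, adjusted p = 0.0395). All 3 pairs of groups overlapped. All 8 Pms1 null animals but only 2 WT animals have a first code number of 16 or more, so a term for late codes was added to the fit; with it Fdft1 (0.12, adjusted p = 0.407) and Insig2 (-0.13, adjusted p = 0.0628) did not pass, while Srebf2 (-0.18, adjusted p = 0.00815) and Hmgcs1 (-0.29, adjusted p = 0.0293) did. In cortex 1 member passed, beside 9.58% of all genes: Srebf2 was at 254, 263 and 271 CPM in WT and 222, 247 and 266 in Pms1 null (-0.10, adjusted p = 0.00838), and with the late-code term it did not (-0.08, adjusted p = 0.193), while Mvd did (-0.34, adjusted p = 0.0463). Loss of 1 copy (Pms1 het against WT) gave 0 members by edgeR or DESeq2 in either tissue, beside 0% of all genes by edgeR in both. At an unadjusted p below 0.05 there were 3 members in striatum, beside 9.96% of all genes, and 2 in cortex, beside 10.4%.

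In cortex no member passed for the knock-in in the edgeR fit without a late-code term. With Q140 against WT 0 members passed by edgeR and 0 by DESeq2, beside 0.0428% of all genes by edgeR, and 3 were at an unadjusted p below 0.05, beside 7.32% of all genes at that threshold. Those 3 were Insig1 (73.2, 81.8 and 104 CPM in WT and 55.6, 67.4 and 86.3 in Q140; -0.31, adjusted p = 0.270), Mvd (-0.24) and Cyp51 (-0.21). Averaged over the 3 backgrounds, 0 passed by edgeR, beside 1.73% of all genes. By DESeq2 2 passed, a count whose share of all genes is not given here. At an unadjusted p below 0.05 there were 4 by edgeR, beside 15.2% at that threshold. Insig1 was at -0.18 (adjusted p = 0.0540), Cyp51 at -0.12 (adjusted p = 0.0671) and Tm7sf2 at 0.10 (adjusted p = 0.0917). Cortical Srebf2 was at -0.0020 and Cyp46a1 at 0.0027 in that average. For Q140 Pms1 null against Q140 0 passed by either tool, beside 0.0107% of all genes by edgeR, and 3 at an unadjusted p below 0.05, beside 14.5%. For Q140 Pms1 het against Q140 0 passed by either tool, beside 0%, and 1 at an unadjusted p below 0.05, beside 5.69%. For the difference of the knock-in effects 0 passed by either tool, beside 0%, and 2 at an unadjusted p below 0.05, beside 5.45%. Q140 Pms1 null against WT gave 3 members, beside 7.66% of all genes: Cyp51 (-0.24, adjusted p = 0.0110), Tm7sf2 (0.22, adjusted p = 0.00977) and Insig1 (-0.29, adjusted p = 0.0319).

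The difference between tissues in the knock-in effect was tested in a fit over all 96 libraries. In 7 members it passed, beside 22.8% of all genes. The effect was more negative in striatum for Acat2 (-0.31), Cyp46a1 (-0.17), Srebf2 (-0.15), Scap (-0.09) and Apoe (-0.09, adjusted p = 0.0440), and more positive for Hsd17b7 (0.17) and Pmvk (0.10). For Mvk, Tm7sf2, Msmo1, Dhcr7, Insig1 and Srebf1, whose averaged effect passed in striatum alone, the difference between tissues did not pass.

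A few members, mostly synthesis enzymes, were higher in males than in females over all genotypes. In cortex 5 members were higher in males and 0 lower, beside 2.74% of all genes higher. Lss was at 43.7, 48.1 and 62.9 CPM (lowest, median and highest of 24 females) and 46.1, 55.4 and 67.1 in 24 males (log2 0.16, adjusted p = 0.00777), and Hmgcs1 at 193, 249 and 299 and 236, 262 and 295 (0.12, adjusted p = 0.0436). Sqle (0.12, adjusted p = 0.0149), Fdps, which makes farnesyl diphosphate (0.11, adjusted p = 0.0167), and Fdft1 (0.09, adjusted p = 0.00207) were the others. The sexes overlapped widely in each. In striatum 3 members were higher in males, beside 2.85% of all genes: Srebf1 (0.11), Tm7sf2 (0.10) and Lss (0.08). Animals that share the first code number are all of 1 sex. With a random term for that number (added after seeing the data, nlme) 0 of the 3 in striatum and 1 of the 5 in cortex, Fdft1 (adjusted p = 0.0259), passed. Over all genes, 175 of 18890 passed with that term in striatum and 136 of 18711 in cortex, in either direction. Without that term 1164 and 1002 genes passed. With the same term 11 members passed for Q140 against WT in striatum, beside 27% of all genes. They were all those named above for that comparison except Stard4 (adjusted p = 0.0721).

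The sexes were also compared in the size of the genotype effects, an analysis added after seeing the data. For Q140 against WT in striatum, Hmgcs1 was at -0.39 in females alone (adjusted p = 0.000238) and -0.02 in males alone (adjusted p = 0.912), and Msmo1 at -0.44 and -0.13. The test of the difference gave 0 members by edgeR, beside 0% of all genes, and 8 at an unadjusted p below 0.05, beside 6.46% of all genes at that threshold; for Hmgcs1 the effects differed by 0.37 (SE 0.11, adjusted p = 0.707). Between Pms1 null and WT animals the difference gave 0 members in striatum, beside 0.0318% of all genes, and 11 at an unadjusted p below 0.05, beside 10.2% (Hmgcs1 0.46, adjusted p = 0.102). In cortex it gave 0 members, beside 0.0481%, and 16 at an unadjusted p below 0.05, beside 9.66% (Hmgcs1 0.41, adjusted p = 0.122). For Q140 against WT in cortex it gave 0 members, beside 0.0267%, and 8 at an unadjusted p below 0.05, beside 11.4%. These differences were not run with DESeq2. Within a tissue the Q140 and Pms1 null differences use the same WT animals, so these counts are not independent of each other. Among those, females 27-2 and 27-5 were both high for striatal Hmgcs1 (0.26 and 0.25 on the log2 scale from genotype and sex means). Males 14-2 and 14-4 were both low (-0.31 and -0.20), and each pair shares a first code number.

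Apart from genotype and sex, the level of the synthesis enzymes varied from animal to animal, and several rose and fell together. After genotype and sex means were removed from log2 CPM, Hmgcs1 and Sqle correlated in striatum (Pearson r = 0.854, Spearman rho = 0.789, n = 48) and in cortex (r = 0.865, rho = 0.861), each with a permutation p of 1e-05, the smallest that 100000 resamples can give (adjusted over 27 relations 1.93e-05 for r). Without the 2 animals farthest from the median the values were 0.806 and 0.838. In striatum Hmgcs1 also went with Srebf2 (r = 0.775, rho = 0.727), Stard4 (0.764, rho 0.716), Cyp51 (0.717, rho 0.623), Idi1 (0.691, rho 0.704) and Insig1 (0.609, rho 0.684), and these held at 0.620 to 0.730 without the 2 farthest animals. In cortex the values were 0.406 for Srebf2, 0.723 for Stard4, 0.668 for Cyp51, 0.542 for Idi1 and 0.572 for Insig1. Within codes under 16 (26 animals) and from 16 up (22 animals) Hmgcs1 and Sqle correlated at 0.811 and 0.883 in striatum and 0.832 and 0.911 in cortex. Permutation takes the animals as independent, and animals that share the first code number were not.

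Over the 153 pairs of the 18 enzymes the median r was 0.207 in striatum (-0.305 to 0.854, 31 pairs above 0.5) and 0.386 in cortex (-0.339 to 0.865, 45 pairs above 0.5), while the median r of an enzyme with all genes was 0.0013 and 0.0049. Ebp, Pmvk, Fdps, Fdft1 and Tm7sf2 were only weakly correlated with most other enzymes in striatum, as the map of correlations shows. Cyp46a1 did not follow Hmgcs1 in striatum (r = -0.01, rho = 0.04, adjusted p = 0.968) and ran against it in cortex (r = -0.546, rho = -0.468, adjusted p = 0.000144). Abca1 went with Srebf1, both known targets of the liver X receptors, in striatum (r = 0.678, rho = 0.685) and cortex (r = 0.535, rho = 0.486), but Abca1 and Abcg1 were at 0.340 in striatum (adjusted p = 0.0206) and 0.03 in cortex (adjusted p = 0.859). Apoe correlated with the mean of the astrocyte markers at 0.510 in striatum and 0.399 in cortex. The mean of the myelinating oligodendrocyte markers correlated with Hmgcs1 at 0.569 in cortex (adjusted p = 1.93e-05) and 0.239 in striatum (adjusted p = 0.109), and its part in the pattern was not tested.

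**Figure D4:**
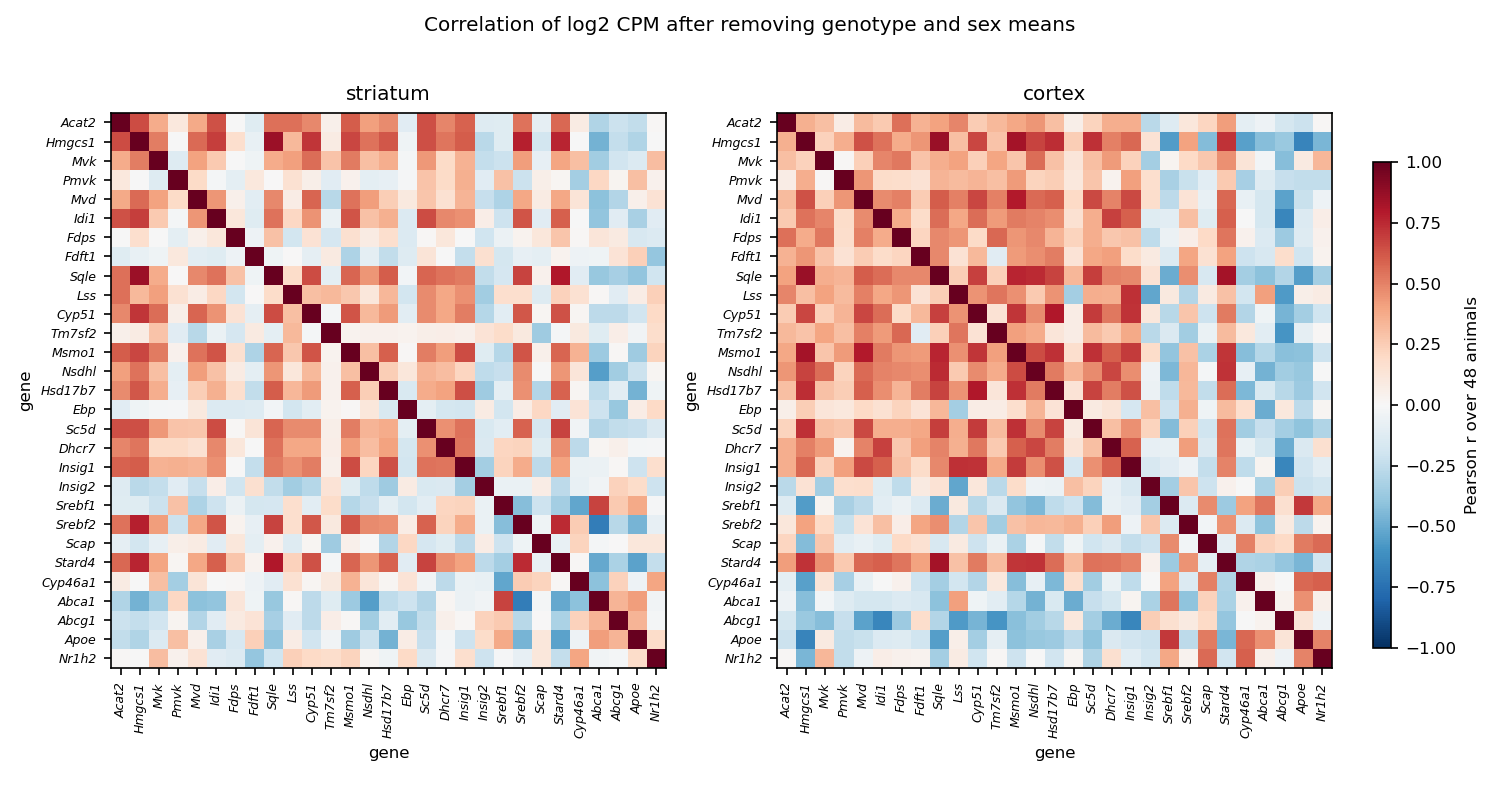
Pearson r between the 29 members over 48 animals after removing genotype and sex means from log2 CPM, striatum on the left and cortex on the right, from -1 (blue) to 1 (red). Hmgcs1, Sqle, Cyp51, Msmo1, Sc5d, Insig1 and Stard4 are red with each other in both tissues, with r from 0.400 up in striatum and from 0.457 up in cortex, and against them Abca1, Abcg1 and Apoe are pale or blue in both tissues, and Cyp46a1 is blue in cortex and between -0.110 and 0.350 in striatum.

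The deviations were shared by the 2 tissues of an animal. Hmgcs1 in striatum correlated with Hmgcs1 in cortex at r = 0.785 (rho = 0.677, permutation p = 1e-05, 0.739 without the 2 farthest animals), a value that 0.896% of 17976 genes reached. Insig1 was at 0.701, Abca1 at 0.495, Idi1 at 0.425 and Apoe at 0.352. Over the members the median was 0.364 (-0.190 to 0.785), beside 0.205 over all genes, of which 10.5% reached 0.5. What handling the 2 libraries of an animal shared was not tested.

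Part of the shared deviation followed the first code number, whose meaning the labels do not state. Over the 36 pairs of animals with the same first number, Hmgcs1 deviations correlated at 0.485 in striatum and 0.328 in cortex. The median over the members was 0.0760 and 0.146, beside 0.00602 and 0.00350 over all genes. Apoe (0.377), Fdps (0.370) and Dhcr7 (0.369) followed Hmgcs1 in striatum, and Hsd17b7 (0.362) and Cyp51 (0.361) led in cortex. The lowest were Cyp46a1 in striatum (-0.291, but 0.325 in cortex) and Fdft1 in cortex (-0.293, but 0.307 in striatum). Apoe was at -0.0898 in cortex, and none of these values was tested. WT animals 27-2 and 27-5 were both high for Hmgcs1 (0.26 and 0.25 on the log2 scale in striatum) and WT animals 14-2 and 14-4 both low (-0.31 and -0.20). Of the 15 first numbers with 2 or more animals, all 15 held animals of 1 sex and 5 held 1 genotype.

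**Figure D5:**
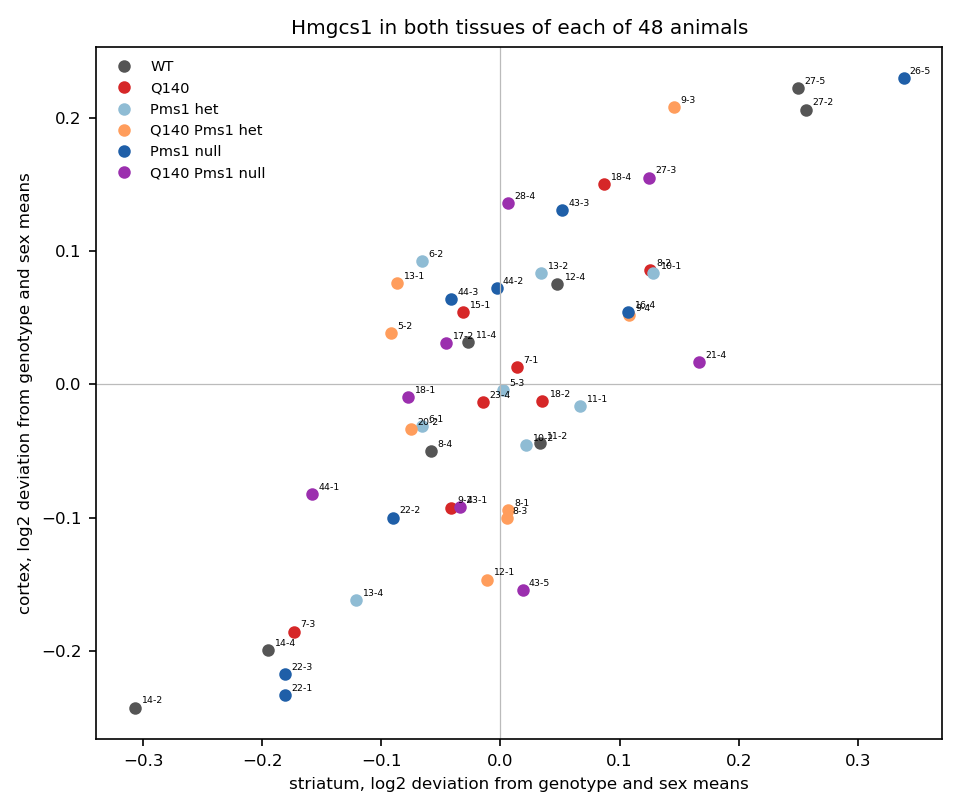
Deviation of Hmgcs1 from its genotype and sex mean in striatum (x axis) and cortex (y axis) of each of 48 animals, on the log2 scale, labelled by animal code and coloured by genotype. The points rise together (r = 0.785), with 14-2, 14-4, 22-1 and 22-3 at the low end and 26-5, 27-2 and 27-5 at the high end.

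Other genes of lipid metabolism, from lists that hold no member, were read in striatal Q140 against WT for comparison. Over all genes tested 15.9% were higher and 15.4% lower, and the counts of each list stand beside these shares. Of 31 tested genes of other sterol handling 7 were higher and 7 lower. Stard5 (0.69), which binds sterol, Nr1h3 (0.40), which encodes LXR-alpha, and Osbpl5 (0.25), an oxysterol-binding protein, led those that rose, and Osbpl8 (-0.44), of the same family, Erlin1 (-0.23), which takes part in sterol-regulated degradation, and Mbtps1 (-0.23), the protease that makes the initial cut in SREBP, led those that fell. Of 15 genes of fatty acid synthesis 1 was higher (Elovl6, 0.16) and 4 lower, led by Me1 (-0.14), Fasn (-0.12) and Fads1 (-0.11). Of 12 genes of the isoprenoid branches Pdss1 (0.14) and Dhdds (0.08), of ubiquinone and dolichol synthesis, were higher, and Nus1 (-0.26), Ggps1 (-0.12) and Icmt (-0.12) lower.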

How the data were processed

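RNA was sequenced from striatum and cortex of 48 mice, 96 libraries, prepared with a strand-marking TruSeq kit after RNeasy purification, per the labels' protocols. The authors deposited unnormalized read counts for each gene in each library (whole numbers, by their values). They also deposited FPKM values computed by the authors. The submitters' processing notes name STAR 2.7.5c, SAMtools 1.10 and HTSeq 0.12.3 and the build GRCm38, with no role or order. The strand setting and the annotation release were not given in the sources used here. Members that overlap other genes are therefore uncertain: Hmgcs1 and Lss with antisense genes, Fdps, Tm7sf2, Srebf1, Srebf2 and Abcg1 with genes on the same strand, and Mvd, Idi1, Fdft1, Cyp51, Insig2, Srebf1 and Scap with genes on the other strand. Coordinates come from GENCODE on GRCm38.

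The fits were made in R 4.3.3 with edgeR 4.0.16 (TMM scaling, filterByExpr by genotype, robust quasi-likelihood fit) in 1 fit per tissue over 48 libraries with genotype and sex as terms. The tissue fit used all 96. Calls were made at a Benjamini-Hochberg adjusted p below 0.05 over all genes tested, and an adjusted p without a named tool is from edgeR. CPM values carry TMM factors, computed within a tissue or, for tissue comparisons, over both. Correlations used log2 CPM with a prior count of 2 and 100000 two-sided permutations. Alternatives used DESeq2 1.42.0, limma 3.58.1 (voom, and log2 FPKM with a pseudocount of 0.1), RLE size factors, no filter, a term for late codes, single sexes, left-out animals and, added after seeing the data, nlme 3.1.168 with a random term for the first code number and a genotype-by-sex test. The edgeR fit was tested on simulated data.

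The members, the lists and the tests were chosen with earlier results of these data known. All members called in a comparison of genotypes are named with their values, and up to 3 higher and 3 lower called genes of each lipid list with a mean of at least 1 CPM. Both tissues of an animal are paired by its code: own-animal deviations correlated at a median of 0.165 (lowest 0.0791, 45 of 48 above 0.1), and 44 striatal libraries correlated best with their own cortex. No libraries were merged: between 144 pairs of like libraries, chi-square divided by its degrees of freedom was at least 3.34 (median 7.94). The labels give 8 animals per genotype and tissue and were followed. Animals sharing a first code number had a consensus correlation of 0.133 in striatum and 0.131 in cortex, and p-values take them as independent. Some genes of this pathway are not reported here.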

Additional observations from a re-analysis of the deposited data

Results flagged for a closer look

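Among 348 groups of 8 animals (29 members, 6 genotypes, 2 tissues), 8 had an animal standing apart from the other 7 by a gap test; at its 5% level chance alone would give 17.4. In cortex these were Abca1 in WT animal 11-4 (41.0 CPM, below a group median of 47.2), Acat2 in Q140 Pms1 het animal 9-3 (30.6, median 26.0), Hmgcs1 in the same animal (280.2, median 250.3), Insig2 in WT animal 14-2 (39.6, median 43.4), Mvd in WT animal 27-2 (24.4, median 19.0) and Nsdhl in Pms1 het animal 13-4 (15.7, median 19.7). In striatum they were Abca1 in Q140 Pms1 het animal 13-1 (61.3, median 72.1) and Apoe in Q140 animal 7-1 (1178, median 1088).

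Other results drew attention because an effect differed between groups by a test of the difference itself, in the edgeR fit over all genes. The knock-in effect on striatal Srebf2 differed by 0.23 between animals without Pms1 and animals with 2 copies. The averaged knock-in effect differed between striatum and cortex for Acat2 (-0.31), Cyp46a1 (-0.17), Srebf2 (-0.15), Scap (-0.0933), Apoe (-0.0935), Hsd17b7 (0.17) and Pmvk (0.10), on the log2 scale and as striatum minus cortex. The Apoe difference did not pass without the low-count filter (adjusted p = 0.126) or on log2 FPKM (adjusted p = 0.318).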

How the results depend on the processing

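Most member counts kept within 1.5 times of their reported value, and those that moved follow. Shares of all genes also differed between settings: striatal Pms1 null against WT gave 2.5% with the late-code term and 10.8% with DESeq2. A count given here without its share is therefore not read as a result about the members. In striatum, Q140 Pms1 null against Q140 gave 0 in males alone (3 as reported), beside 0.924% of all genes. Pms1 null against WT (3) gave 1 without the low-count filter (beside 2.91% of all genes) and 1 with only the 2 genotypes (5.49%). The same comparison gave 7 in females (5.66%) and 0 in males (0%). The averaged knock-in effect (13) gave 20 on log2 FPKM. The difference of knock-in effects (1) gave 2 with RLE size factors, 4 with the late-code term and 5 with DESeq2. Males against females (3) gave 6 on log2 FPKM, 0 with voom and the first code number as a block, and 0 with nlme. In cortex, Pms1 null against WT (1) gave 5 with DESeq2, 4 in females and 0 in males. The averaged knock-in effect (0) gave 1 with RLE, 1 with the late-code term, 2 with DESeq2 and 1 with voom and the block, and males against females (5) gave 1 with nlme. The causes were not tested, though single-sex and 2-genotype fits use fewer animals. Leaving out each animal in turn gave 11 to 14 for Q140 against WT and 2 to 4 for Q140 Pms1 null against Q140. With the animal as a replicate block, the pairing of tissues gave 27 members between WT tissues (27 as reported) and 9 for the tissue difference of the knock-in effect (7), and ended no call of a named member. No named member changed direction in any alternative; DESeq2 and RLE kept 75 of 75 named calls. The correlation of Hmgcs1 with Cyp46a1 in striatum, -0.01 as reported, was 0.0313 on log2 FPKM. Depth limited few values, since the least abundant member, Idi1, was at 3.78 to 5.98 CPM in WT striatum. All Pms1 null animals, with and without the knock-in allele, have late codes, and males and females share no first code number, which limits the comparisons of Pms1 and of sex.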
